A study of Mus musculus with 6 samples.

Results

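The interferon-stimulated genes described here are 39 genes that cells switch on when interferons bind their receptors. Of these, 35 of the 22180 genes measured could be read. The members were picked by name as a gene group, and each was read by the probe set with the highest mean among those that carry its symbol alone. Dtx3l, Gbp2 and Oas1a were listed only on probe sets that carry several symbols, Ifi44 had no probe set of its own in the platform annotation, and none of these 4 has a value. The tissue was the intact inguinal mammary gland of 4-week-old C57BL/6J mice, with 3 arrays of a stromal knockout and 3 of wild type. The knockout mice, labelled Dermo1Cre/Mt1-mmp(fl/fl), lost floxed Mt1-mmp (now Mmp14, a membrane-anchored matrix metalloproteinase) in cells with Dermo1-driven Cre, a driver of mesenchymal cells. The wild-type mice, labelled Mt1-mmp(+/+), were littermates, and whether they carried Cre is not stated, so Cre and the loss of Mmp14 cannot be told apart. Mmp14 read 8.57, 8.55 and 8.75 log2 units in knockout 1 to 3, against 11.18, 10.55 and 10.90 in wild type 1 to 3, in the direction of the labels.

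Type I interferons (the alpha family, beta and others) and type III interferons (lambda) act through receptors coupled to JAK kinases. These activate STAT2, which works in a complex with IRF9 that binds the interferon-stimulated response element, a DNA motif before the start of many antiviral genes. Interferon gamma acts through another motif, the gamma-activated sequence, and drives guanylate-binding proteins, IRF1 and the immunoproteasome. In a resting tissue these genes are held at a low tonic level, and both immune and epithelial cells express them.

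Few of these genes passed the test between stromal knockout and wild-type glands. Of the 35 measured genes, 3 fell (Ifit1, Oas2 and Stat2) and 1 rose (Ifi27), by limma over all genes at a Benjamini-Hochberg adjusted p of 0.05. That is 11.4% of the members, against 12.2% of all 22180 genes, so the share called was near that of all genes. Both group means lay below the 33rd percentile of gene levels for 6925 of all genes and 1 of 35 members. With the lowest 33 percent of genes left out, 3272 of 14860 genes passed, against 4 falls and 1 rise among 33 members. The members' share was then below that of all genes. With all genes kept, the shares in each direction were 8.57% falling, against 7.20% of all genes, and 2.86% rising, against 5.05%. The differences of the 35 genes, knockout minus wild type, ran from -1.66 to 0.81 log2 units with a median of -0.34, and the median over all genes was 0.03. Differences were below 0 for 23 members, and 45.6% of all genes had one below 0. The groups did not overlap for 16 members (45.7%, against 32.7% of all genes). The knockout was the lower one for 11 of these (31.4%, against 15.4% of all genes) and the higher one for 5 (14.3%, against 17.2%). At an unadjusted p of 0.05, 10 of 35 members were lower, beside 13.4% of all genes, and 2 of 35 were higher, beside 13.1% (26.5% of all genes in either direction). In whole tissue, fewer cells of a type and less RNA per cell cannot be told apart.

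**Figure D1:**
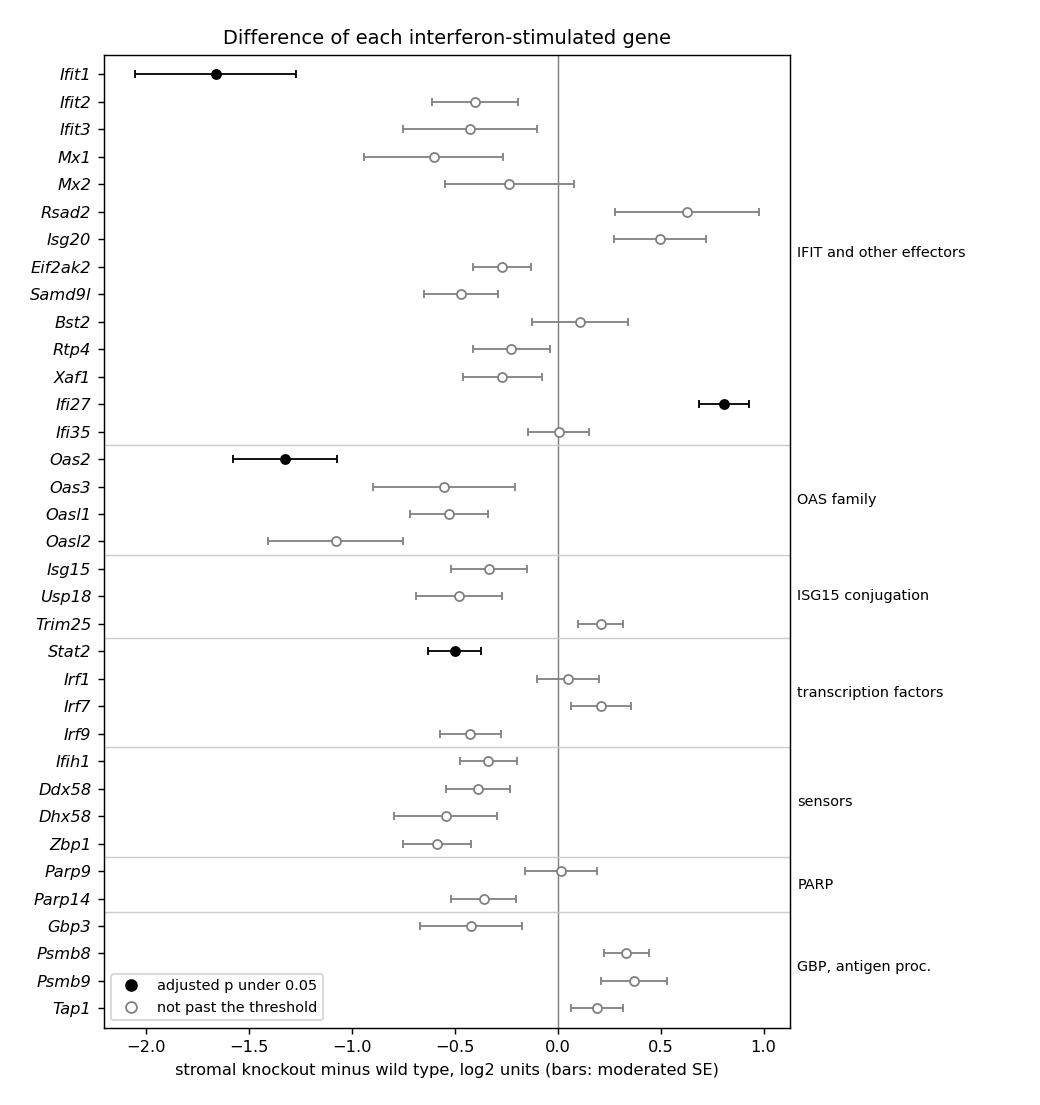
Difference of each of the 35 measured genes, stromal knockout minus wild type, in log2 units on the horizontal axis, with bars for the moderated standard error (n = 3 arrays per group) and genes grouped by role. Filled points passed an adjusted p of 0.05: Ifit1, Oas2 and Stat2 lie left of 0 and Ifi27 right of it.

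Some lists of cell markers also moved with the groups, and their part in these differences was not tested. Beside the counts below, 7.20% of all genes fell and 5.05% rose. Levels here are means of the log2 levels of a list in each array, a scale without a true 0. Luminal epithelium markers fell in 16 of 16 measured genes, with list means of 5.14 to 5.35 in knockout arrays, against 7.31 to 7.49 in wild-type arrays. Macrophage markers fell in 7 of 15 and rose in 0, with means of 7.75 to 7.83 in knockout arrays, against 8.10 to 8.38 in wild-type arrays. Fewer calls came from the natural killer cell list (3 of 8 fell, means 2.51 to 2.74 in knockout, against 3.20 to 3.35 in wild type) and the plasmacytoid dendritic cell list (3 of 7 fell, means 3.93 to 4.00 in knockout, against 4.25 to 4.51 in wild type). Among natural killer markers, 4 of 8 lay below the 33rd percentile of gene levels (2.68 log2 units) in both groups, a range in which a change cannot be read. So did 2 of 7 plasmacytoid markers, Klk1 and Ccr9, and only Ccr9 of that list had a positive difference. Its 3 falls were Siglech (mean 3.25 in knockout, against 3.96 in wild type), Tcf4 (8.31, against 8.79) and Ly6d (5.79, against 7.48). Cox6a2 and Pacsin1 differed by -0.135 and -0.136 and did not pass (limma adjusted p = 0.804 and 0.7). The plasmacytoid list mean thus mixes genes of unlike level, and in whole tissue its falls cannot be assigned to 1 cell type. Basal epithelium (7 of 9) and fibroblast markers (5 of 10) also had falls, and endothelial (3 of 9) and adipocyte markers (3 of 9) had rises. T lymphocyte (1 of 9, 11.1%), B lymphocyte (1 of 8, 12.5%) and conventional dendritic cell markers (1 of 6, 16.7%) had 1 fall each. Each of these last shares rests on 1 gene, too few to set apart from the 7.20% of all genes. Skeletal muscle markers had 0 calls of 10 by limma, with 2 lower at an unadjusted p of 0.05, and their mean was 3.34 to 3.40 in knockout arrays, against 6.08, 4.02 and 3.38 in wild type 1 to 3.

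Promoters of 5 members are printed because the results turn on these genes or they stand for a role group. RefSeq promoter windows of build GRCm38.p6, 250 bases before to 50 after the start, were matched by symbol for 29 of the 39 members, and the called genes Oas2 and Ifi27 are among the 10 that are named only. The core of the response element, read as GAAA, any 2 bases and GAAA again, on either strand, stood in the windows of 13 of these 29 genes (44.8%), against 1079 of all 27025 genes with a window (3.99%). The core of the gamma-activated sequence, TTCNNNGAA, which reads the same on both strands, stood in 8 of 29 (27.6%), against 9.55% of all genes. A match describes the letters only. Ifit1 and Stat2 fell, Rsad2 and Isg15 did not pass the test, and Psmb8 stands for the immunoproteasome genes. The 250 bases before each start follow, 5′ to 3′ on the strand of the gene, with matches to the response element core on either strand in capitals.
Ifit1, chr19:34640639-34640888, plus strand: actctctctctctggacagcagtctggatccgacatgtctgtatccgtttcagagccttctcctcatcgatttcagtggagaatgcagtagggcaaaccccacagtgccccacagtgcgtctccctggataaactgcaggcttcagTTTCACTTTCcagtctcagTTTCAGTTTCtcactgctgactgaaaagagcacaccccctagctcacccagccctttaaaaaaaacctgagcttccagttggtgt
Stat2, chr10:128270248-128270497, plus strand: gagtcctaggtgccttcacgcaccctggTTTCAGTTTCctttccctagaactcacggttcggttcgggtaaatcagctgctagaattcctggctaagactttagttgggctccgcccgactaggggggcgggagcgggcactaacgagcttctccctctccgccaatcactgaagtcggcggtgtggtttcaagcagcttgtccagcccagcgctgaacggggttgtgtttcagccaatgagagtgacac
Rsad2, chr12:26456453-26456702, minus strand: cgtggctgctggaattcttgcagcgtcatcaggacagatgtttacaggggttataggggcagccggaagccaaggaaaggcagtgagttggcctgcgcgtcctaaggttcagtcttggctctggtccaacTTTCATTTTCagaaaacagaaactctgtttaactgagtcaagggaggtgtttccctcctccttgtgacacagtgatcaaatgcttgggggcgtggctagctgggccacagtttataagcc
Isg15, chr4:156200819-156201068, minus strand: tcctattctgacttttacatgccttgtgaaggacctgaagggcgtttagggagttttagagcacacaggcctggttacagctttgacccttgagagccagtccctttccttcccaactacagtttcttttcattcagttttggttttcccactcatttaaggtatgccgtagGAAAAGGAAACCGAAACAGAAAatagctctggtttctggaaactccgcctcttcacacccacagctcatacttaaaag
Psmb8, chr17:34197945-34198194, plus strand: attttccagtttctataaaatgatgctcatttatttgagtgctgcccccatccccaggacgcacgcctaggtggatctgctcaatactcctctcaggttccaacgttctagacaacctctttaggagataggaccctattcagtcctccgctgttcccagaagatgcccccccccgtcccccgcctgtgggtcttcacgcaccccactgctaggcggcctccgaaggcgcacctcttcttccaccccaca
The Ifit1 promoter has 2 separate matches, whose nearest bases lie at -95 and -76 from the start. Stat2 has 1 at -213 and Rsad2 1 at -111, while Isg15 has 3 overlapping matches that end at -69, -63 and -57. Psmb8 has no such match in these letters and holds TTCCCAGAA at -97 to -89. The same motif thus stood before a gene that fell and before genes that did not pass, and no comparison of motif with response was tested.

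Among the antiviral effectors, Ifit1 fell and Ifi27 rose, and the other 12 of 14 measured genes did not pass. Ifit1, whose protein binds viral RNA that lacks host cap methylation, read 3.75, 4.91 and 5.38 log2 units in knockout 1 to 3, against 5.94, 6.48 and 6.61 in wild type 1 to 3. The groups do not overlap, but knockout 1 alone lies more than a log2 unit under the other knockout arrays. The difference was -1.66 ± 0.39 log2 units (SE), a 3.16-fold lower level in the knockout (limma adjusted p = 0.0316). The call was lost without knockout 2 (adjusted p = 0.0674) or without wild type 1, 2 or 3 (0.0593, 0.0956 and 0.1), with differences of -1.53 to -1.86 there. Its neighbours on chromosome 19 did not pass: Ifit2 differed by -0.40 ± 0.21 (adjusted p = 0.274) and Ifit3 by -0.43 ± 0.33 (adjusted p = 0.461), both with overlapping groups. These genes are close relatives, so probes may read more than 1 of them.

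Ifi27, which encodes a small interferon-induced membrane protein, was the only member that rose. It read 9.82, 10.11 and 9.96 log2 units in knockout 1 to 3, against 9.12, 9.15 and 9.19 in wild type 1 to 3. Every knockout array lies above every wild-type array, and the wild-type arrays lie within 0.07 of each other. The difference was 0.81 ± 0.12 log2 units, a 1.75-fold higher level in the knockout (limma adjusted p = 0.00565). It is the only called member that passed in all 13 alternative analyses, with adjusted p from 0.000286 to 0.027.

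Rsad2 (viperin, an enzyme that makes a chain-terminating nucleotide) and Isg20 (an exonuclease) had positive differences that did not pass. Rsad2 read 6.33, 7.89 and 6.91 log2 units in knockout 1 to 3, against 6.20, 6.45 and 6.60 in wild type 1 to 3, and its difference of 0.63 ± 0.35 did not pass (adjusted p = 0.31). Knockout 2 is far above the rest, and knockout 1 lies inside the wild-type range. Isg20 read 8.07, 8.91 and 8.14 in knockout 1 to 3, against 7.83, 8.03 and 7.77 in wild type 1 to 3, with knockout 2 again highest. Its groups do not overlap, and the difference of 0.50 ± 0.22 did not pass (adjusted p = 0.209).

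Samd9l, a restriction factor of poxviruses, read 5.05, 5.43 and 5.76 log2 units in knockout 1 to 3, against 5.84, 5.94 and 5.87 in wild type 1 to 3. The groups do not overlap, and its difference of -0.47 ± 0.18 did not pass (adjusted p = 0.141), except without knockout 3, at -0.64 (adjusted p = 0.0473). Bst2 (tetherin, which holds budding virus at the cell surface) read 7.13, 7.37 and 8.10 in knockout 1 to 3, against 7.39, 7.49 and 7.38 in wild type 1 to 3, so the knockout arrays lie on both sides of wild type (difference 0.11 ± 0.23, adjusted p = 0.811). Eif2ak2, the RNA-dependent kinase PKR that halts translation, differed by -0.27 ± 0.14 (adjusted p = 0.276). Xaf1 differed by -0.27 ± 0.19, Rtp4 by -0.22 ± 0.19 and Ifi35 by 0.01 ± 0.15, all with overlapping groups (adjusted p 0.433 to 0.987). Mx1, a dynamin-like GTPase that is defective in C57BL/6 mice, averaged 1.89 in knockout and 2.49 in wild-type arrays, both below the low-level limit of 2.68, where a change cannot be read. Mx2, its relative, differed by -0.24 ± 0.31 (adjusted p = 0.693).

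**Figure D2:**
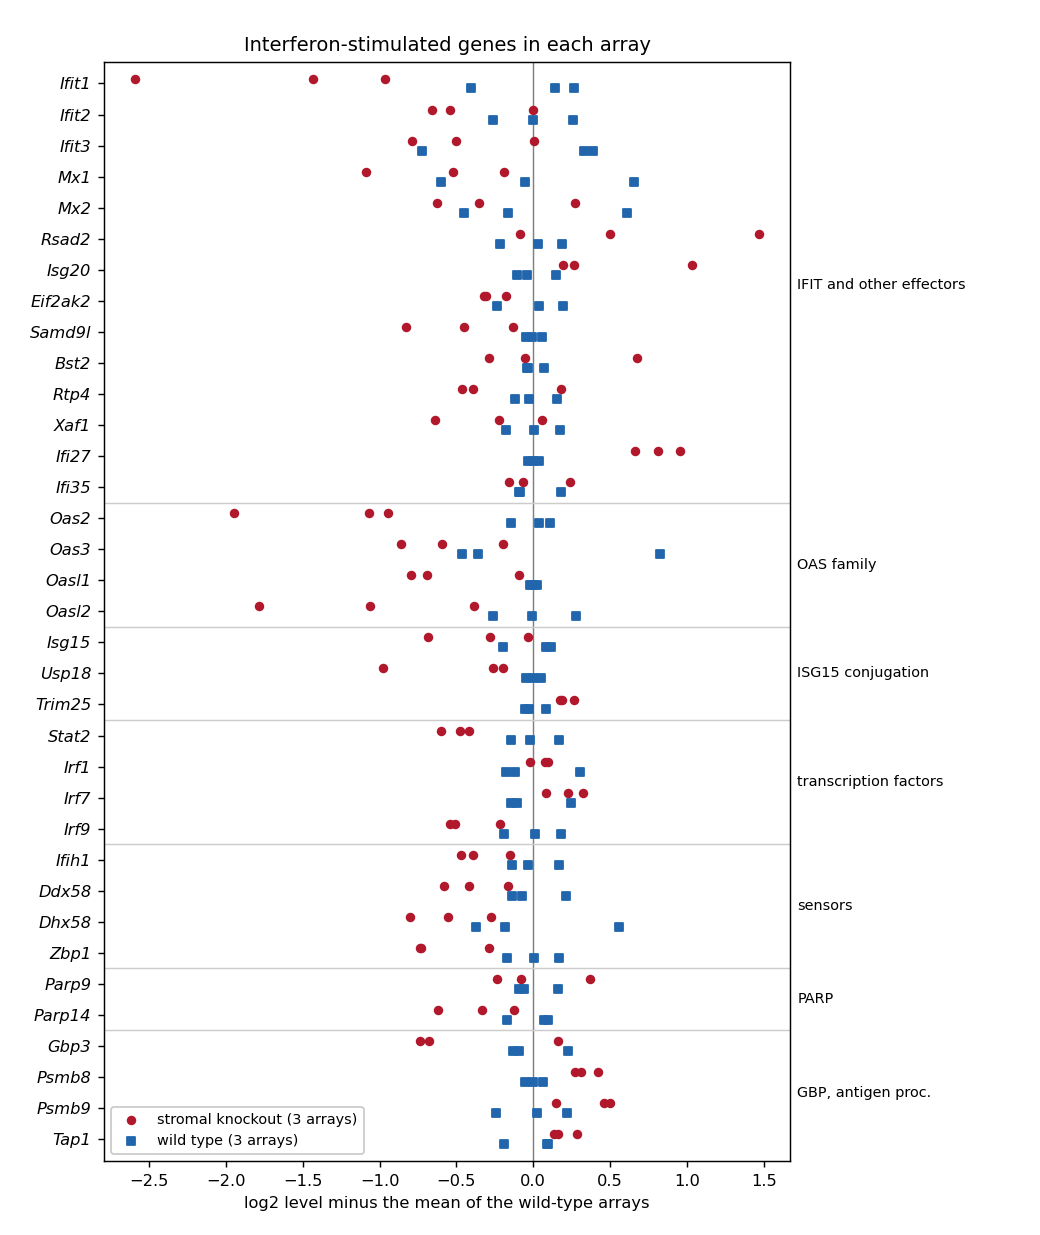
Log2 level of each of the 35 measured genes in each array, minus the mean of that gene's 3 wild-type arrays, with knockout arrays as circles above and wild-type arrays as squares below. The knockout circles lie wholly left of the squares for 11 genes and wholly right for 5, and knockout values of Ifit1, Oasl2, Oas2 and Rsad2 spread over 1.00 to 1.63 log2 units.

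The oligoadenylate synthetase family makes the short 2′,5′-linked adenylate chains that switch on RNase L. Of 4 measured genes, Oas2 fell and the others had negative differences that did not pass. Oas2 read 5.42, 6.30 and 6.42 log2 units in knockout 1 to 3, against 7.23, 7.40 and 7.48 in wild type 1 to 3. Again the groups do not overlap and knockout 1 is the lowest array. Its difference was -1.32 ± 0.25, a 2.50-fold lower level in the knockout (limma adjusted p = 0.0146), and the call was lost without wild type 3 (adjusted p = 0.0548, at -1.27).

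Oasl2, an OAS-like protein with ubiquitin-like domains, read 5.89, 6.61 and 7.29 log2 units in knockout 1 to 3, against 7.41, 7.66 and 7.95 in wild type 1 to 3. The groups do not overlap, yet the difference of -1.08 ± 0.33 (2.11-fold) did not pass (adjusted p = 0.0727). Without knockout 3 it was -1.42 and passed (adjusted p = 0.0179), and it also passed with an intensity trend (0.0306) and with the replicate number as a block (0.0252). Oasl1, which in mice restrains translation of Irf7, differed by -0.53 ± 0.19 (adjusted p = 0.117) and passed without knockout 3 at -0.75 (adjusted p = 0.0147). Oas3 averaged 2.28 in the knockout, below the low-level limit of 2.68, and wild type 1 and 2 were also below it, at 2.48 and 2.37. Its difference of -0.55 ± 0.34 did not pass (adjusted p = 0.359) and was -0.14 without wild type 3, which read 3.66.

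In the ISG15 system, a ubiquitin-like tag that is joined to proteins, 0 of 3 genes passed by limma, also at an unadjusted p of 0.05. Usp18, the protease that removes the tag and also blocks the type I receptor, read 5.57, 6.29 and 6.35 log2 units in knockout 1 to 3, against 6.55, 6.51 and 6.60 in wild type 1 to 3. Its groups do not overlap and knockout 1 stands lowest, at a difference of -0.48 ± 0.21 (adjusted p = 0.189). Isg15 itself read 3.10, 3.50 and 3.75 in knockout 1 to 3, against 3.58, 3.87 and 3.90 in wild type 1 to 3, with overlapping groups and a difference of -0.33 ± 0.19 (adjusted p = 0.303). Trim25, a ubiquitin ligase that activates RIG-I, lay higher in every knockout array by a small amount, with a difference of 0.21 ± 0.11 (adjusted p = 0.275).

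Of the transcription factors, Stat2 fell by a small amount and Irf1, Irf7 and Irf9 did not pass. Stat2, the STAT specific to type I and III interferons, read 6.76, 6.58 and 6.71 log2 units in knockout 1 to 3, against 7.17, 7.04 and 7.35 in wild type 1 to 3. The groups do not overlap and the knockout arrays lie within 0.18 of each other. The difference was -0.50 ± 0.13, a 1.41-fold lower level in the knockout (limma adjusted p = 0.0417). This call was lost without any 1 array other than wild type 2 (adjusted p 0.0762 to 0.135), with the replicate block (0.0773) and with arrays centred on their medians (0.0729).

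Irf9, the DNA-binding partner of the STAT complex, read 7.07, 7.04 and 7.36 log2 units in knockout 1 to 3, against 7.76, 7.39 and 7.59 in wild type 1 to 3. The groups just separate, at a difference of -0.42 ± 0.15 (adjusted p = 0.111). Irf7, which drives the later interferon alpha genes, differed by 0.21 ± 0.15 (adjusted p = 0.407). Irf1, an early target of interferon gamma, differed by 0.05 ± 0.15 (adjusted p = 0.869), and both had overlapping groups.

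All 4 sensors of foreign nucleic acid had negative differences, and 0 passed by limma. In 3 of them the knockout arrays lay wholly below wild type, beside 15.4% of all genes, and the same number were lower at an unadjusted p of 0.05, beside 13.4%. Zbp1, which senses Z-form nucleic acid and can start necroptosis, read 5.78, 5.79 and 6.24 log2 units in knockout 1 to 3, against 6.53, 6.35 and 6.69 in wild type 1 to 3. Its difference of -0.59 ± 0.16 came nearest to the threshold (adjusted p = 0.0578). It passed with low genes left out (0.0397), an intensity trend (0.0328), array weights (0.0356) and without knockout 3, at -0.74 (0.026). The RNA helicases differed by -0.39 ± 0.16 for Ddx58 (RIG-I, adjusted p = 0.16), by -0.34 ± 0.14 for Ifih1 (MDA5, adjusted p = 0.171) and by -0.54 ± 0.25 for Dhx58 (LGP2, adjusted p = 0.22).

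Of the 4 guanylate-binding and antigen-processing genes measured, Psmb8, Psmb9 and Tap1 had positive differences and Gbp3 a negative one. Psmb8, a catalytic subunit of the immunoproteasome, read 7.99, 8.10 and 7.95 log2 units in knockout 1 to 3, against 7.63, 7.74 and 7.68 in wild type 1 to 3. The groups do not overlap, and the difference of 0.33 ± 0.11 did not pass (adjusted p = 0.0954), except with an intensity trend (0.0358) or median centring (0.0444, at 0.42). Its partner subunit Psmb9 differed by 0.37 ± 0.16 (adjusted p = 0.192). Tap1, a chain of the peptide transporter into the endoplasmic reticulum, had groups that just separate, at a difference of 0.19 ± 0.13 (adjusted p = 0.389). Gbp3, a guanylate-binding GTPase, read 5.81, 5.75 and 6.65 in knockout 1 to 3, against 6.36, 6.40 and 6.71 in wild type 1 to 3, where knockout 3 lies within the wild-type range. Its difference of -0.42 ± 0.25 did not pass (adjusted p = 0.332), but without knockout 3 it was -0.71 (adjusted p = 0.0345). Of the ADP-ribosyltransferases, Parp14 differed by -0.36 ± 0.16 (adjusted p = 0.198) and Parp9 by 0.02 ± 0.18 (adjusted p = 0.96). For these 2 small groups the count by limma was 0 of 4 and 0 of 2, with 1 and 0 at an unadjusted p of 0.05.

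The median spread of these genes was larger among knockout than among wild-type arrays. The median SD over the 35 genes was 0.33 log2 units among knockout arrays and 0.17 among wild-type arrays, while over all genes it was 0.16 and 0.17. The knockout SD was the larger in 22 of 35 members (62.9%), against 49.3% of all genes. The members' order of arrays was also shared, so the SDs of the 35 genes are not independent readings of spread. Knockout 3 was the highest knockout array for 25 of 35 members (71.4%), against 36.6% of all genes, and knockout 1 the lowest for 20 (57.1%), against 35.4%. Within wild type, array 3 was highest for 27 members (77.1%), against 33.3% of all genes, and array 1 lowest for 23 (65.7%), against 34.0%.

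The mean over the members lay -0.22, 0.01 and 0.21 log2 units from the group mean in knockout 1 to 3, and -0.16, -0.03 and 0.19 in wild type 1 to 3. The highest knockout array thus averaged 6.50, against 6.39 in the lowest wild-type array, so the groups overlap in this mean. In the knockout arrays, endothelial markers lay -0.21, -0.03 and 0.24 from their group mean, conventional dendritic cell markers -0.15, -0.02 and 0.17 and T lymphocyte markers -0.13, 0.01 and 0.12. In the wild-type arrays, T lymphocyte markers lay -0.24, 0.10 and 0.14 from the group mean and skeletal muscle markers 1.59, -0.48 and -1.11. The mean of the T lymphocyte list thus had the members' order of arrays in both groups, and the other marker lists did not keep it in both. Its wild type 2 and 3 means lay close, at 3.96 and 3.99. Single T lymphocyte markers did not keep this order in both groups. Cd4 read 4.51, 5.11 and 4.83 in wild type 1 to 3, and Cd3e 6.06, 5.46 and 5.86 in knockout 1 to 3. Endothelial markers lay 0.03, -0.08 and 0.04 from the group mean in wild type 1 to 3. Macrophage markers lay 0.00, -0.04 and 0.04 from it in knockout 1 to 3, and 0.08, -0.18 and 0.10 in wild type 1 to 3. The part of these lists in the spread was not tested. Leaving out knockout 3 gave 7 of 35 members that fell (Gbp3, Ifit1, Oas2, Oasl1, Oasl2, Samd9l and Zbp1) and 1 that rose. In that fit 2304 of 22180 genes passed in either direction, against 2717 with all arrays, and falls among all genes were not counted apart. Knockout 3 was the highest knockout array for 25 of 35 members, so leaving it out lowers their knockout means. Without wild type 3, 0 fell and Ifi27 still rose, where 1671 of 22180 genes passed in either direction. The count of members thus rests on which single array is present.

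**Figure D3:**
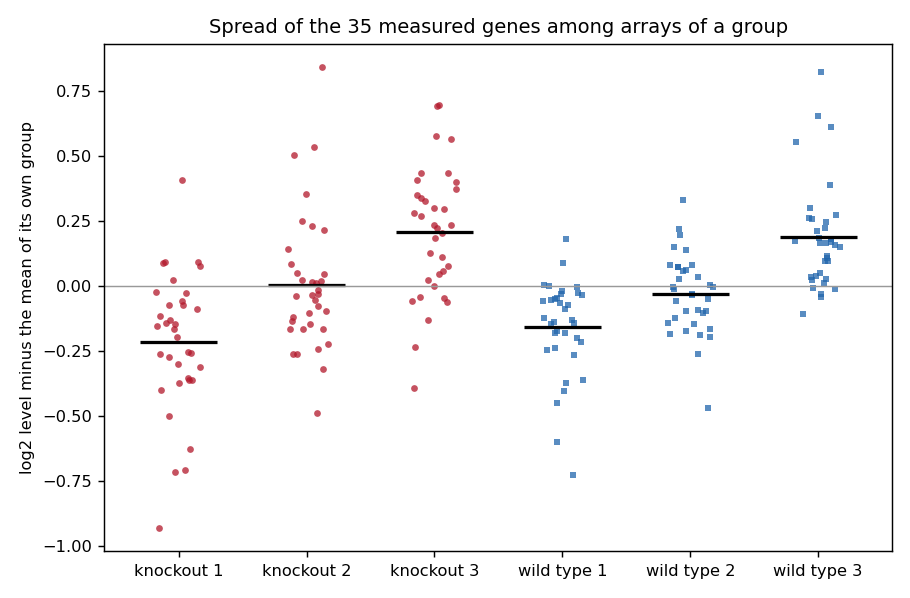
Log2 level of each of the 35 measured genes minus the mean of its own group, by array, with 1 point per gene and a black bar for the mean over genes. The bar lies at -0.22, 0.01 and 0.21 in knockout 1 to 3 and at -0.16, -0.03 and 0.19 in wild type 1 to 3.

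The rest of the pathway was counted from 6 lists, with 23 of 132 measured genes called (17.4%), against 12.2% of all genes. For the interferons themselves, 0 of 19 measured genes passed by limma, and 1 was higher (Ifna14, 0.36 ± 0.13, adjusted p = 0.107) at an unadjusted p of 0.05. In 13 of the 19, both group means were below the low-level limit of 2.68. Many alpha interferon genes are near copies, so a probe set may read several.

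Receptors and JAK kinases had the largest share of calls of the 6 lists, at 5 of 9, against 4 of 9 STAT and IRF factors and restrainers. This order turned without knockout 1, with 2 falls and 1 rise, against 4 falls and 0 rises. Of the 9 receptor and kinase genes, 4 fell in the main fit (44.4%, against 7.20% of all genes) and 1 rose (11.1%, against 5.05%). Ifnlr1, the lambda interferon receptor chain of epithelial cells, read 2.10, 2.58 and 2.95 log2 units in knockout 1 to 3, against 4.10, 3.65 and 4.04 in wild type 1 to 3. It fell by 1.39 ± 0.23 (adjusted p = 0.00859), and the size is uncertain because its knockout mean is under the low-level limit of 2.68. The gamma receptor chains went opposite ways. Ifngr2 read 7.33, 7.26 and 7.53 in knockout 1 to 3, against 8.44, 8.26 and 8.19 in wild type 1 to 3, a difference of -0.92 ± 0.13 (adjusted p = 0.00467). Ifngr1 read 10.72, 10.69 and 10.42 in knockout 1 to 3, against 9.54, 9.76 and 10.00 in wild type 1 to 3, a difference of 0.84 ± 0.16 (adjusted p = 0.0128), which was lost without knockout 2 (adjusted p = 0.0519). In both, the groups do not overlap.

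Jak2, a kinase of the gamma receptor, fell by 0.64 ± 0.14 log2 units (adjusted p = 0.0233), a call lost without knockout 1 or 2 or wild type 2 or 3 (0.0642 to 0.077). Il10rb, the chain that the lambda receptor shares with other cytokines, fell by 0.47 ± 0.12 (adjusted p = 0.0381), lost when any array but knockout 3 was left out (0.0853 to 0.13), with the replicate block (0.0915) and with median centring (0.0727). The type I receptor chains did not pass, at -0.10 ± 0.12 for Ifnar1 (adjusted p = 0.646) and 0.11 ± 0.14 for Ifnar2 (adjusted p = 0.67), both with overlapping groups.

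Of 9 measured STAT and IRF factors and restrainers, 4 fell (44.4%, against 7.20% of all genes) and 0 rose. The genes that fell were Ptpn6, a phosphatase of blood cells (-0.97 ± 0.13, adjusted p = 0.00332), the feedback inhibitors Socs3 (-0.81 ± 0.15, adjusted p = 0.0112) and Socs1 (-0.71 ± 0.12, adjusted p = 0.00972), and the myeloid factor Irf8 (-0.63 ± 0.16, adjusted p = 0.0425). Irf8 lost its call without knockout 2 or 3 or any wild-type array (0.0685 to 0.131), and with repeated quantile normalization (0.0915) and median centring (0.0605). With the mean of its 2 probe sets Irf8 was at -0.33 (0.31), and Socs3, treated likewise, was at -0.35 (0.105), so neither passed. Of 13 measured genes tied to the induction of interferon, Tlr7, an endosomal RNA receptor, fell (-0.62 ± 0.11, adjusted p = 0.0109) and 0 rose. That is 7.69% falling, near the 7.20% of all genes.

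Of 67 other interferon-stimulated genes, 12 fell (17.9%, against 7.20% of all genes) and 0 rose, with a median difference of -0.39. The falls were led by Ido1, which breaks down tryptophan, at 4.00, 2.67 and 3.23 log2 units in knockout 1 to 3, against 6.83, 7.06 and 7.74 in wild type 1 to 3 (-3.91 ± 0.35, adjusted p = 0.000831). Oas1g (-1.70 ± 0.20, adjusted p = 0.00208), Ifit3b (-1.69 ± 0.33, adjusted p = 0.0158) and Epsti1 (-1.51 ± 0.20, adjusted p = 0.00349) followed. Ifit3b lost its call without wild type 2 or 3 (0.058 and 0.0603), and its knockout mean of 1.87 makes its size a lower bound. Oas1g is a close copy of Oas1a, and Ifit3b of Ifit3, so the signals of each pair may be mixed. The count of falls was 7 without knockout 1 and 5 without knockout 2 or wild type 3. With the lowest 33 percent of genes left out it was 15 of 60, where 3272 of 14860 genes passed in either direction. In the MHC class I list, H2-Q4 (0.58 ± 0.14, adjusted p = 0.0368) was the 1 of 15 genes that rose (6.67%, against 5.05% of all genes), and 0 fell. The H2-Q4 call was lost when any array but knockout 3 was left out (0.0518 to 0.115), with the replicate block (0.0957) and with the mean of its probe sets (0.27, adjusted p = 0.367).

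**Figure D4:**
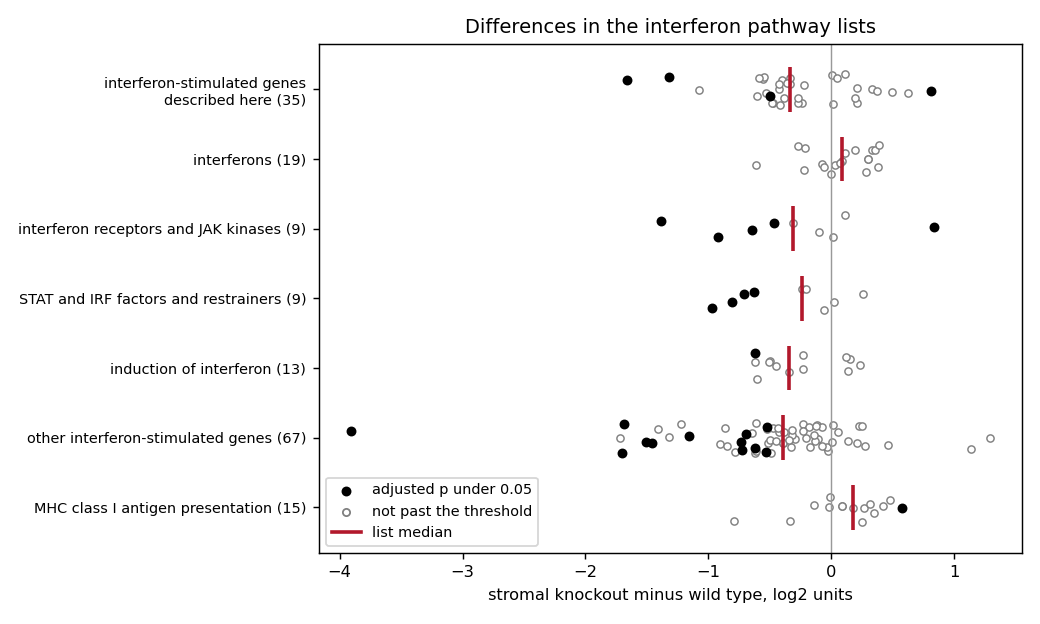
Difference of each gene, stromal knockout minus wild type, in log2 units, for the 35 members and the 6 pathway lists (number of measured genes in brackets), with filled points past an adjusted p of 0.05 and a red bar at the list median. The medians lie at -0.34 for the members, -0.39 for the other interferon-stimulated genes and 0.18 for the MHC class I list, and the leftmost point is Ido1 at -3.91.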

How the data were processed

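Total RNA of intact inguinal mammary glands (400 ng per sample) was hybridised to Affymetrix whole-transcript arrays, per the labels' protocols, and the samples are labelled biological replicates. The deposited log2 values are the authors' own, and RMA and limma are the tools named, per the submitters' processing notes. The log base was read from the range of the values and from RMA, whose output is log2. Array medians were 3.77 to 3.78 in knockout and 3.85 to 3.89 in wild-type arrays, so every knockout median lay below every wild-type one.

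Of 41345 probe sets, 23521 carry 1 symbol, and the highest-mean one per symbol gave 22180 genes. The groups were tested with lmFit and eBayes of limma 3.58.1 (R 4.3.3), with Benjamini-Hochberg adjustment over all genes, a threshold of 0.05 and moderated standard errors. The number of arrays limits the precision. The fit was tested on simulated data. Genes named were all members, up to 4 called genes per pathway list by size of difference, and Mmp14. Il10rb, Ifna14, Ifnar1 and Ifnar2 were added after their values were seen. Members and lists were chosen with earlier results of these data known. Alternatives left out the lowest 33 percent of genes or each array in turn, or used an intensity trend, array weights, repeated quantile normalization, median centring, the mean of probe sets or the replicate number as a block.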

Additional observations from a re-analysis of the deposited data

How the results depend on the processing

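With 1 array left out, the number of members that fell ran from 0 to 7 and 1 rose in each case, and the median difference of the members ran from -0.48 to -0.25 log2 units. Under the other 7 alternatives the median lay between -0.38 and -0.25. With an intensity trend, 5 members fell and 2 rose, 4 genes of the induction list fell, 1 other interferon-stimulated gene rose and 2 MHC class I genes rose. Median centring put the median of all genes at 0.12 log2 units, against 0.03 in the values as deposited, and 2 members and 2 MHC class I genes rose, while Stat2, Il10rb and Irf8 did not pass. With low genes left out, 2 genes of the induction list fell and 2 MHC class I genes rose, and repeated quantile normalization gave 2 and 2 as well. Array weights gave 2 falls in the induction list. With the mean of probe sets, 2 STAT and IRF genes fell and 0 MHC class I genes rose.

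With 1 array left out, falls numbered 2 to 4 among receptors and JAK kinases (0 to 1 rose), 1 to 3 in the induction list, 5 to 13 among other interferon-stimulated genes and 0 to 1 in the MHC class I list (0 to 2 rose). The interferons had 0 calls throughout. With 1 array left out the fit also has fewer residual degrees of freedom. Over all genes, deviations of same-numbered arrays from their group means correlated at -0.03, -0.05 and -0.03. Over the members alone, array 1 had the lowest mean and array 3 the highest in both groups. Whether same-numbered arrays share more than a number was not tested for the members. With the replicate block, 1923 of all genes passed, against 2717 without it, and 0 MHC class I genes rose. Among other interferon-stimulated genes, 17 fell with the block, against 12 without it. Oasl2 passed with the block, and Stat2, Il10rb and H2-Q4 did not. Levels near background and 3 arrays per group limit what can be read.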
